A study of Mus musculus with 6 samples.

Results

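Transcripts of the immunoglobulin constant genes and of the joining chain were followed in mouse material labelled lung tissue. The members are 10 genes found by exact symbol in the deposited table of 21956 genes: the heavy chain genes Ighm, Ighd, Ighg3, Ighg1, Ighg2b, Ighg2c, Ighe and Igha, the kappa light chain gene Igkc, and Jchain. All 10 were in the table and all 10 passed the filter on low counts. The groups are VE and Aalter, with 3 libraries each (VE-1 to VE-3 and Aalter-1 to Aalter-3). The labels leave both names unexplained, and they give no strain, age, dose or time. The series title mentions alpha tocopherol (a vitamin E), allergic airway inflammation, ferroptosis of group 2 innate lymphoid cells and the kinase LKB1. The comparison asks how the VE libraries differ from the Aalter libraries, and no untreated group was analysed here. The labels do not say whether the libraries of a group are separate animals, and each p-value is therefore relative to a spread between samples that may be technical.

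Library totals were 12663763 to 15077851 estimated counts in VE and 11617074 to 16205053 in Aalter. Markers of lung epithelium were low: Sftpc, the surfactant gene of alveolar type 2 cells, lay at 13.4 to 18.3 CPM (counts scaled to library size and composition) in VE and 12.6 to 14.4 CPM in Aalter, whereas the neutrophil gene S100a9 lay at 16582 to 20619 CPM in VE and 11675 to 13350 CPM in Aalter. The summed level of 12 liver markers was 1219, 38.3 and 59.5 CPM across VE-1 to VE-3, against 923, 64.7 and 52.0 CPM across Aalter-1 to Aalter-3, so that the library numbered 1 stood apart in both groups. Aalter-1 also stood apart from Aalter-2 and Aalter-3 in most of the 10 members. The main results that rest on it are therefore given with and without it, and the source of these differences was not tested.

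An antibody consists of paired heavy and light chains, and the constant part of the heavy chain sets its class. Naive B cells make IgM and IgD from Ighm and Ighd by alternative splicing of 1 long transcript. In class switching, DNA breaks are made and repaired so that the variable region is joined to a downstream constant gene, giving IgG, IgE or IgA. Plasma cells secrete antibody and hold far more immunoglobulin transcript per cell than resting B cells. In the airway and gut, the J chain links IgA monomers into dimers, and IgM monomers into larger polymers, that the polymeric immunoglobulin receptor carries across epithelium. Ighg2c takes the place of Ighg2a in C57BL/6 and some other mouse strains. In bulk tissue a lower level can come from fewer cells of a type or from less RNA per cell, and these cannot be told apart. A gene level count also pools the membrane and secreted forms of a heavy chain, and it includes germline transcripts of a constant gene that has not been switched to.

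All heavy chain members lie on the minus strand of chromosome 12, given here on build GRCm38 with GENCODE annotation, in the order of transcription. Ighm lies at chr12:113418558-113422730 and Ighd follows at chr12:113406604-113416324. The IgG subclass genes are Ighg3 at chr12:113356224-113361232, Ighg1 at chr12:113325240-113330523, Ighg2b at chr12:113302965-113307933 and Ighg2c at chr12:113285325-113288932. Ighe lies at chr12:113269260-113273248 and Igha is last at chr12:113254830-113260236. Igkc, a single exon, is at chr6:70726435-70726966 on the plus strand, and Jchain at chr5:88519809-88527891 on the minus strand.

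The chains that J chain joins, mu and alpha, share a secretory tail that the gamma chains lack, which is why J chain transcript is set against Ighm plus Igha below. The last 60 coding bases of the secreted form, stop codon included, are shown 5′ to 3′ from the GENCODE transcripts (GRCm38, minus strand). They lie at chr12:113420867-113420926 in Ighm, chr12:113258768-113258827 in Igha, chr12:113328976-113329035 in Ighg1 and chr12:113287389-113287448 in Ighg2c. Capitals mark a cysteine codon just before the last residue, which Ighm and Igha have and the gamma genes shown, Ighg1 and Ighg2c, do not.
Ighm: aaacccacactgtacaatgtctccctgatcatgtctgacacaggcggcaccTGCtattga
Igha: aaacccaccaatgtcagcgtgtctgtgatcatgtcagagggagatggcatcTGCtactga
Ighg1: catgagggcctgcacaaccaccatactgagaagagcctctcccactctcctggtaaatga
Ighg2c: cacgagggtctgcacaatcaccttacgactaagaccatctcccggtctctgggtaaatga
Without gaps, the tails of Ighm and Igha are identical at 41 of 60 bases and those of Ighg1 and Ighg2c at 46 of 60. Between a tail with the cysteine and one without it, 14 to 23 of 60 bases are identical.

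Another pair of sequences bears on how well the counts separate the subclasses. The longest run of identical bases between any pair of heavy chain transcripts compared, 78 bases, is shared by Ighg2b and Ighg2c, against at most 41 bases for any other pair among Ighm, Igha and the IgG genes. It lies in exon 3, shown here over 120 bases with the run in capitals (GRCm38, minus strand, chr12:113306848-113306967 in Ighg2b and chr12:113287848-113287967 in Ighg2c).
Ighg2b: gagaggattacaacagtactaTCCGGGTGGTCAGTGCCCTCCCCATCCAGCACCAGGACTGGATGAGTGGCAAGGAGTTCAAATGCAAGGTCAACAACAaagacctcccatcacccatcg
Ighg2c: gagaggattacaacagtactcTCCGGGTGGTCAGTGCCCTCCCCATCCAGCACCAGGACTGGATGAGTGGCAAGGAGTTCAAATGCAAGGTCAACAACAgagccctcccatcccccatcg
Ighg2b and Ighg2c were also the only members with estimated counts that were not whole numbers, so reads could have been divided between them and their separate values are less certain than their sum.

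None of the 10 members passed the test between VE and Aalter, although 9 of the 10 had groups that did not overlap. The quasi-likelihood test of edgeR, adjusted by Benjamini-Hochberg over 12551 genes with a threshold of 0.05, called 32.3% of all genes tested, 12.8% higher and 19.5% lower in VE. Groups without overlap were found in 51.9% of all genes tested. An unadjusted p under 0.05 was found in 4 of the 10 members, no larger a share than the 46.2% of all genes tested. Of these, Igkc, Ighe and Jchain were higher and Ighd lower in VE. In size, 8 members had a log2 fold change of VE over Aalter between 1.79 and 2.02. An absolute log2 fold change at least as large as the smallest of these was found in 2.88% of all genes tested. That cut was taken from the members' own values, so these 8 reach it by construction and the share is a description only. The other 2 members, Ighm and Ighd, had values near 0. Together the members took 2.20%, 2.54% and 4.33% of all counts across VE-1 to VE-3, against 1.97%, 0.440% and 0.447% across Aalter-1 to Aalter-3. These shares did not overlap, and the exact two-sided permutation test gave p = 0.1, the smallest that 3 against 3 libraries allows (adjusted p = 0.144 over 13 make-up measures).

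**Figure D1:**
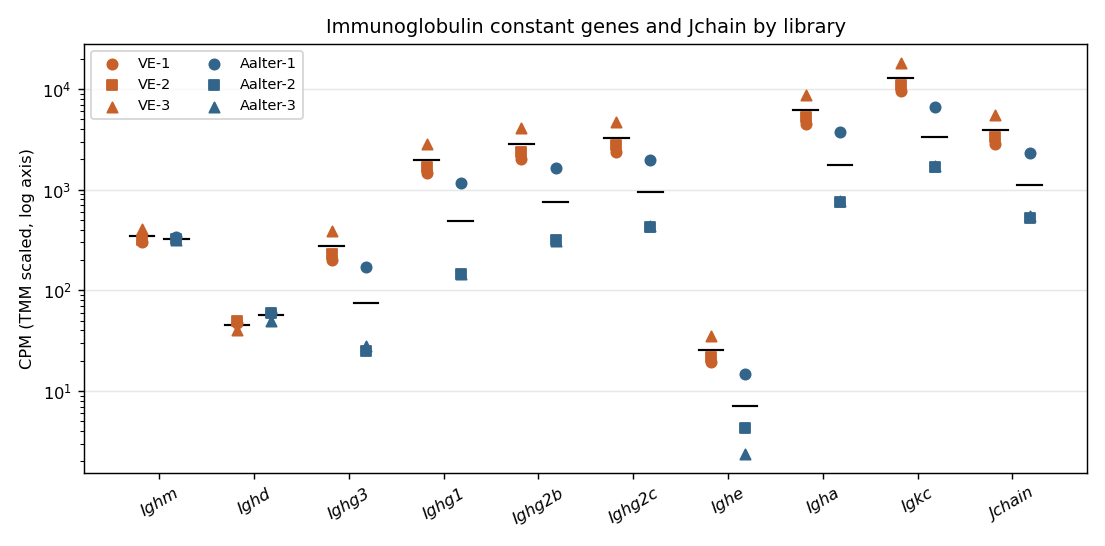
Level of each of the 10 members in each library, in TMM-scaled CPM on a log axis, with VE left of Aalter; points are libraries and short lines are group means. For the 8 members other than Ighm and Ighd, Aalter-1 sits close under the VE libraries and Aalter-2 and Aalter-3 lie well below them.

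Igha, the IgA heavy chain and the heavy chain gene with the most counts in these libraries, had 4466, 5327 and 8749 CPM across VE-1 to VE-3, against 3776, 762 and 776 CPM across Aalter-1 to Aalter-3. VE-3 was the highest library, and Aalter-1 lay just below VE-1 while the other Aalter libraries were far lower. The means were 6180 ± 2265 CPM in VE and 1771 ± 1736 CPM in Aalter (SD, n = 3 each), and the log2 fold change was 1.80 ± 0.75 (SE; edgeR adjusted p = 0.12, not passed).

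In the IgG subclass genes, too, VE-3 was highest and Aalter-1 lay between VE-1 and the other Aalter libraries. Ighg1, the heavy chain of IgG1, had 1453, 1670 and 2830 CPM across VE-1 to VE-3, against 1175, 145 and 145 CPM across Aalter-1 to Aalter-3. It had the largest spread within Aalter of any member, with Aalter-1 at 8.09 times the mean of the other Aalter libraries, and its log2 fold change of 2.02 ± 0.99 (SE) did not pass (edgeR adjusted p = 0.170). Ighg2c had 2344, 2751 and 4744 CPM in VE, against 1988, 425 and 436 CPM in Aalter, with a log2 fold change of 1.79 ± 0.73 (SE; edgeR adjusted p = 0.116). Ighg2c had the most counts of any IgG gene in every library, followed by Ighg2b, and this order of the means also held per kilobase of transcript. Ighg2b had 2041, 2380 and 4081 CPM in VE, against 1657, 320 and 306 CPM in Aalter, with a log2 fold change of 1.90 ± 0.80 (SE; edgeR adjusted p = 0.123). Ighg3, the IgG gene with the lowest mean per kilobase too, had 202, 232 and 386 CPM in VE, against 170, 25.2 and 27.8 CPM in Aalter, with a log2 fold change of 1.88 ± 0.88 (SE; edgeR adjusted p = 0.156). In all 4 subclass genes the groups did not overlap, and Aalter-1 was nearer to VE-1 than to Aalter-2 or Aalter-3 on the log scale.

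Ighe, the heavy chain of the IgE that arms mast cells and basophils in allergy, had the fewest counts of any member, also per kilobase. It had 19.3, 21.7 and 35.1 CPM across VE-1 to VE-3, against 14.7, 4.25 and 2.39 CPM across Aalter-1 to Aalter-3, from 269, 259 and 513 estimated counts in VE and 242, 51 and 40 in Aalter. The groups did not overlap, and the log2 fold change was 1.82 ± 0.69 (SE; edgeR adjusted p = 0.0940, not passed). The share of Ighe among heavy chain counts was 0.177%, 0.170% and 0.165% in VE, against 0.160%, 0.206% and 0.116% in Aalter. These shares overlapped (exact two-sided permutation p = 0.7).

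Igkc, the kappa light chain constant gene carried by most mouse antibodies, had the most counts of any member in every library. It had 9520, 10876 and 17950 CPM across VE-1 to VE-3, against 6691, 1678 and 1731 CPM across Aalter-1 to Aalter-3. Its groups were separated by the gap between VE-1 and Aalter-1. The means were 12782 ± 4527 CPM in VE and 3366 ± 2879 CPM in Aalter (SD, n = 3 each), and its log2 fold change of 1.92 ± 0.64 (SE) came nearest to the threshold among the members (edgeR adjusted p = 0.0658). The lambda constant genes, which are not members, had lower levels. Estimated counts of Iglc2 and Iglc3 were not all whole numbers, so reads could have been divided between them. Separate values of these 2 genes are thus less certain than their sum. Iglc2 and Iglc3 rose in VE, by 1.06 and 1.69 on the log2 scale (edgeR adjusted p = 0.0305 and 0.0406, calls lost when any 1 library but Aalter-1 was left out, with library size scaling, without a filter on low counts, with a replicate block, and after trends with GC content and length were removed), and Iglc1, named after its values were seen, had a log2 fold change of 2.04 that did not pass (edgeR adjusted p = 0.0815). Summed lambda counts were 2.58%, 2.57% and 2.41% of the Igkc counts in VE, against 2.63%, 3.61% and 3.61% in Aalter.

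Jchain, the small chain that links IgA and IgM into polymers, had 2843, 3359 and 5470 CPM across VE-1 to VE-3, against 2299, 519 and 550 CPM across Aalter-1 to Aalter-3. The order of the libraries was close to that of Igha, and the groups did not overlap. Its log2 fold change was 1.79 ± 0.69 (SE; edgeR adjusted p = 0.0988, not passed). Per count of Ighm plus Igha there were 0.596, 0.595 and 0.597 Jchain counts in VE, against 0.558, 0.478 and 0.504 in Aalter. This ratio had a log2 difference of 0.22, or 0.28 without Aalter-1. The 3 VE libraries were almost equal in this ratio and lay above every Aalter library (exact two-sided permutation p = 0.1, the smallest possible; adjusted p = 0.144). Against Igha alone, Jchain stood at 0.637, 0.631 and 0.625 in VE and at 0.609, 0.682 and 0.709 in Aalter, so that the groups overlapped.

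Jchain lies outside both antibody loci but had nearly the fold change of the 6 switched heavy chain genes, so its promoter is shown. The 250 bases before its first transcribed base come from RefSeq (GRCm38.p6, minus strand, chr5:88527898-88528147), and capitals mark the motif CANNTG, the E-box.
Jchain promoter: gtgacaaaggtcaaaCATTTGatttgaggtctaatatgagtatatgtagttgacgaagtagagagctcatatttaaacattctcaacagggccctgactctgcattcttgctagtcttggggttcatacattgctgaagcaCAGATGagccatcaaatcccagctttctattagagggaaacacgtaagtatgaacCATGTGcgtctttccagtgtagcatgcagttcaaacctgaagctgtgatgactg
This window holds 3 E-boxes, which begin 235, 109 and 54 bases before the start. Searched on both strands over the same 250 bases of 32851 RefSeq mouse promoters, 66.2% hold at least 1. It also holds 2 copies of GGAA, the core of ETS sites, a motif found in 93.4% of the promoters. The octamer ATGCAAAT, found in 1.60% of the promoters, is not in this window. These matches describe letters and are not binding sites.

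The first constant genes of the locus behaved differently. Ighm, the IgM heavy chain, had 302, 318 and 412 CPM across VE-1 to VE-3, against 342, 324 and 315 CPM across Aalter-1 to Aalter-3. The groups overlapped, and the log2 fold change was 0.07 ± 0.13 (SE; edgeR adjusted p = 0.704). Ighd, the IgD heavy chain of naive B cells, had 47.6, 49.3 and 40.1 CPM in VE, against 60.3, 59.2 and 50.2 CPM in Aalter. VE-3, the highest library for all other members, was the lowest for Ighd, and the groups did not overlap. Its log2 fold change was -0.31 ± 0.12 (SE; edgeR adjusted p = 0.0816, not passed). In Aalter-1, Ighm was 1.07 times and Ighd 1.10 times the mean of Aalter-2 and Aalter-3, whereas the other 8 members were 3.93 to 8.09 times that mean. Per count of Ighd there were 6.35, 6.45 and 10.3 Ighm counts in VE, against 5.68, 5.47 and 6.28 in Aalter, with no overlap (exact two-sided permutation p = 0.1, the smallest possible; adjusted p = 0.144). The log2 difference of 0.37 was 0.14 without VE-3.

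**Figure D2:**
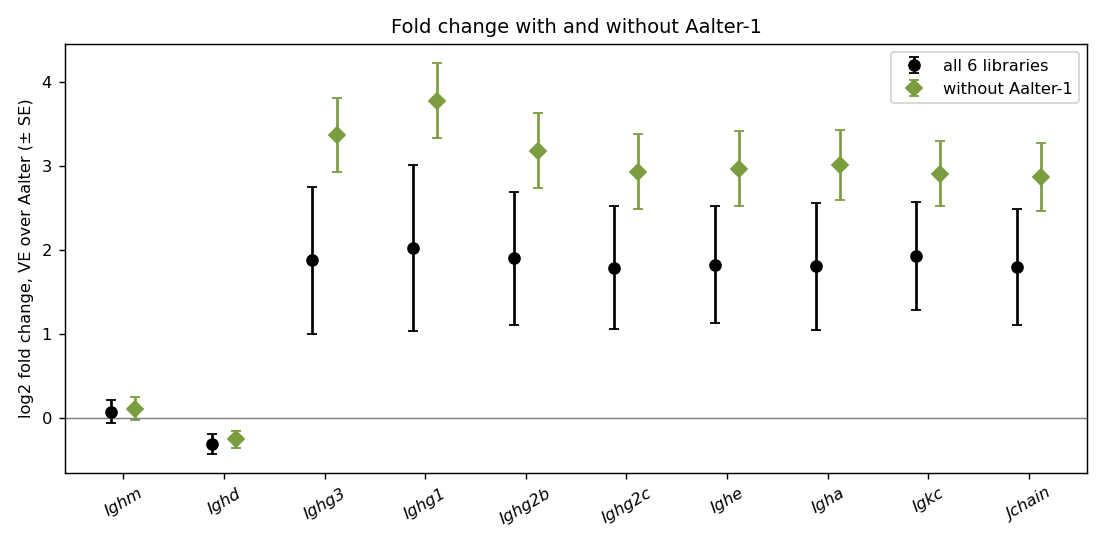
Log2 fold change of VE over Aalter for each of the 10 members, with bars of 1 standard error, from the edgeR fit on all 6 libraries and from the fit without Aalter-1. With all libraries 8 members lie between 1.79 and 2.02, without Aalter-1 they lie between 2.86 and 3.77, and Ighm and Ighd stay near 0 in both.

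The call depended on Aalter-1. Without it, 8 members rose in VE, against a background of 56.3% of genes called in either direction and 27.8% called higher. Their log2 fold changes lay between 2.86 for Jchain (edgeR adjusted p = 0.00962) and 3.77 for Ighg1 (edgeR adjusted p = 0.00617). Igkc was then at 2.91 (edgeR adjusted p = 0.00778), Igha at 3.01 (edgeR adjusted p = 0.00905) and Ighe at 2.97 (edgeR adjusted p = 0.00529). Ighm was at 0.11 (edgeR adjusted p = 0.538) and Ighd at -0.26 (edgeR adjusted p = 0.0541), and neither passed. Aalter-1 was singled out for its levels of these same members, so calls and adjusted p-values without it are no independent support. Leaving out any other single library gave 0 members called. Against Aalter-1 alone, with no test, the VE means were 1.61 to 1.91 times as high for those 8 members, about equal for Ighm and 0.758 times for Ighd. Without both libraries numbered 1, the pair high in liver markers, 9 members passed, 8 higher and Ighd lower in VE, against a background of 55.6%. With all 6 libraries, limma-voom called the same number of members higher, 8, against 32.7% of all genes tested, and DESeq2 called Igkc alone (adjusted p = 0.0356), against 35.9%. Ighd alone passed, as lower in VE, with library size scaling (background 29.7%) and after trends with GC content and length were removed (background 26.2%), and 0 members passed with a replicate block (background 26.0%).

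The isotype make-up was taken within each library, as shares of its heavy chain counts, so that the total of these counts is divided out. The share of a class still moves when the level of another class changes, as is set out below for Ighm. Heavy chain counts were 151757, 152146 and 310623 across VE-1 to VE-3, against 150838, 24752 and 34397 across Aalter-1 to Aalter-3. At these depths the exact 95% binomial interval of a share reached at most 0.603 percentage points to either side, for counting error alone. The switched classes, IgG, IgE and IgA, made up 96.8%, 97.1% and 97.9% of heavy chain counts in VE, against 95.6%, 81.4% and 82.3% in Aalter. The groups did not overlap, and the difference in means was 10.8 percentage points (exact two-sided permutation p = 0.1, the smallest possible; adjusted p = 0.144). Most of it lay in Aalter-2 and Aalter-3, since Aalter-1 was close to the VE libraries. Without Aalter-1 the difference was 15.4 percentage points.

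Igha held the largest share in every library, without correction for transcript length, with 41.1%, 41.8% and 41.1% of heavy chain counts in VE, against 41.1%, 36.9% and 37.7% in Aalter (overlapping, exact permutation p = 0.2). Ighg2c followed with 21.6%, 21.6% and 22.3% in VE, against 21.7%, 20.6% and 21.2% in Aalter, and the groups overlapped (exact permutation p = 0.3). Ighg2b held 18.8%, 18.7% and 19.2% in VE, against 18.0%, 15.5% and 14.9% in Aalter, without overlap (exact permutation p = 0.1). Among the switched classes the widest relative gap was in Ighg1, with 13.4%, 13.1% and 13.3% in VE, against 12.8%, 7.04% and 7.05% in Aalter (no overlap, exact permutation p = 0.1). Ighg3 held 1.86%, 1.82% and 1.82% in VE, against 1.85%, 1.22% and 1.35% in Aalter (overlapping, exact permutation p = 0.3). Ighm held 2.78%, 2.49% and 1.93% in VE, against 3.73%, 15.7% and 15.3% in Aalter, and Ighd 0.438%, 0.386% and 0.189% in VE, against 0.656%, 2.87% and 2.44% in Aalter. Per kilobase of the longest transcript, the difference in share was 2.29 percentage points for Ighg2c and 3.18 for Igha, against 0.681 and 2.74 from the counts, and both then had an exact permutation p of 0.1. Neither of the unswitched classes overlapped between groups (exact permutation p = 0.1 each). Without Aalter-1 the difference in share was -13.1 percentage points for Ighm and 6.21 for Ighg1, against -9.17 and 4.29 with all libraries. Adjusted over the 13 measures, every p of 0.1 became 0.144.

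**Figure D3:**
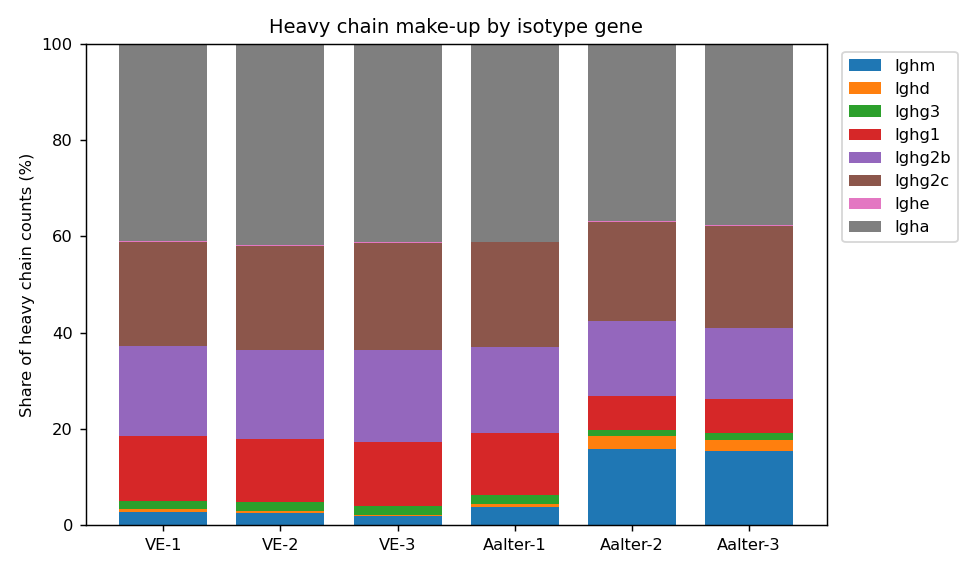
Share of heavy chain counts, in percent, held by each of the 8 heavy chain genes in each library, VE libraries left of Aalter libraries. The bars of VE-1, VE-2, VE-3 and Aalter-1 look alike, while in Aalter-2 and Aalter-3 Ighm takes 15.7% and 15.3%.

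Counted without Ighm and Ighd, the switched classes were mixed in similar but not equal proportions. Ighg1 made up 13.8%, 13.5% and 13.6% of switched counts in VE, against 13.4%, 8.65% and 8.57% in Aalter. Igha made up 42.4%, 43.0% and 42.0% in VE, against 43.0%, 45.3% and 45.8% in Aalter, and Ighg2c 22.3%, 22.2% and 22.8% in VE, against 22.6%, 25.3% and 25.7% in Aalter. Ighg1 was thus lower in Aalter-2 and Aalter-3 than in the other 4 libraries even among switched transcripts, and Igha and Ighg2c were higher there. There were 0.739, 0.757 and 0.727 Igha counts per count of the summed IgG genes in VE, against 0.757, 0.832 and 0.849 in Aalter. These proportions are given as a description, without a test.

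In CPM rather than shares, the summed unswitched transcripts differed less between libraries than the switched ones. Ighm plus Ighd summed to 350, 367 and 452 CPM in VE, against 403, 383 and 365 CPM in Aalter, whereas the switched genes summed to 10525, 12382 and 20825 CPM in VE, against 8780, 1681 and 1694 CPM in Aalter. The larger share of Ighm in Aalter-2 and Aalter-3 thus stood beside a lower level of the switched genes, with an Ighm level close to that in Aalter-1.

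Set against Igkc, Igha and Jchain varied little between libraries, whereas Ighm varied widely. Per 100 Igkc counts there were 46.9, 49.0 and 48.7 Igha counts across VE-1 to VE-3, against 56.4, 45.4 and 44.9 across Aalter-1 to Aalter-3. Jchain stood at 29.9, 30.9 and 30.5 per 100 Igkc counts in VE, against 34.4, 30.9 and 31.8 in Aalter. Ighm stood at 3.17, 2.92 and 2.29 per 100 Igkc counts in VE, against 5.12, 19.3 and 18.2 in Aalter. Over all heavy chains, Igkc counts per heavy chain count were 0.875, 0.853 and 0.844 in VE, against 0.729, 0.813 and 0.841 in Aalter, and Aalter-1 was the lowest library (no overlap, exact two-sided permutation p = 0.1, adjusted p = 0.144). The log2 difference of 0.11 was 0.05 without Aalter-1 (exact permutation p = 0.2).

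**Figure D4:**
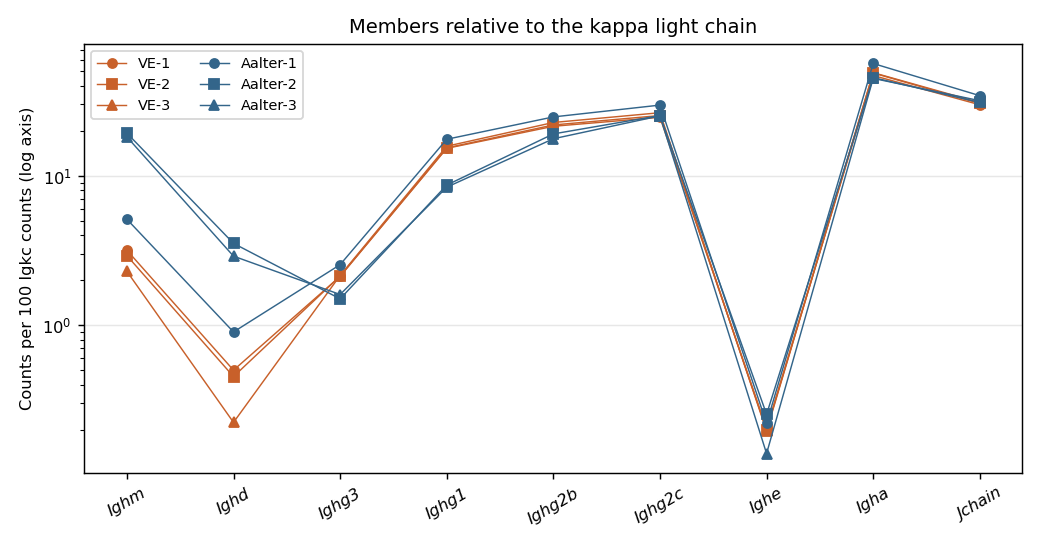
Counts of each heavy chain gene and of Jchain per 100 Igkc counts in each library, on a log axis; lines join the points of 1 library and carry no other meaning. Libraries lie close together for Jchain, Igha, Ighg2b and Ighg2c, while Ighm spans 2.29 in VE-3 to 19.3 in Aalter-2.

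Pairs of libraries can be compared over the whole make-up by the percentage points of heavy chain counts that would have to change class to turn one into the other. Any pair of VE libraries differed by 0.744 to 1.43 points. Aalter-1 differed from VE-1, VE-2 and VE-3 by 1.32, 1.61 and 2.30 points, and from Aalter-2 and Aalter-3 by 14.2 and 13.4 points. Aalter-2 and Aalter-3 differed from each other by 1.53 points and from the VE libraries by 14.5 to 16.5 points. In make-up, then, the library labelled Aalter-1 lay with the VE libraries. The variable segments, 206 other genes, are joined to constant genes in the same antibody transcripts, so they give no independent support. They too placed Aalter-1 nearer to VE than to its own group. There were 1.79 to 2.44 points between VE libraries and 2.54 to 3.28 points between Aalter-1 and VE. Aalter-2 and Aalter-3 differed by 5.62 points, and the remaining pairs by 13.4 to 15.3 points. VE-1 and VE-2 were close in estimated counts, where the 8 members other than Ighm and Ighd differed by at most 3.86%. Their library totals were not equal, at 14744185 in VE-1 and 12663763 in VE-2. In CPM they were therefore further apart, with Igha at 4466 and 5327 and Igkc at 9520 and 10876. Libraries were also compared over the better counted genes tested, by the median squared difference relative to sampling variance. Sampling noise alone would give 0.455, and every pair was above it, with VE-1 and VE-2 the closest at 0.694. Aalter-1 was at 4.80, 4.82 and 5.04 from VE-1, VE-2 and VE-3. From Aalter-2 and Aalter-3 it was at 6.05 and 6.41. Pairs of VE libraries were at 0.694 to 1.75, and Aalter-2 and Aalter-3 were at 1.04 from each other. Over these genes Aalter-1 was thus somewhat nearer to VE but far from both sets.

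Levels of different genes can be compared per length of transcript. In CPM per kilobase of the longest annotated transcript, Igkc averaged 24026 ± 8509 in VE and 6328 ± 5412 in Aalter (SD, n = 3 each), the highest level of any member. Ighe averaged 17.4 ± 5.85 in VE and 4.88 ± 4.56 in Aalter per kilobase, the lowest. Which member came next after Igkc depended on the transcript chosen, since per kilobase of the longest transcript Ighg2c averaged 2702 CPM and Igha 2433 CPM in VE, and per kilobase of the shortest Igha averaged 5619 CPM and Ighg2c 2952 CPM. On the scale of the longest transcript Ighg2c was above Igha and Igha above Jchain in each of the 6 libraries, with 1931, 1758 and 1215 CPM per kilobase in VE-1.

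Markers of mature B cells were lower in VE. Of 18 markers, 12 fell and 0 rose (66.7% called, against 32.3% of all genes tested), with a median log2 fold change of -0.89 against 0.02 over all genes tested. Spib, a transcription factor of B cells and plasmacytoid dendritic cells, had 6.95, 4.44 and 5.14 CPM in VE, against 23.3, 27.2 and 25.9 CPM in Aalter, and fell by 2.20 on the log2 scale (edgeR adjusted p = 0.00240). Pax5, which maintains B cell identity, fell by 1.5 (edgeR adjusted p = 0.00394). Bach2, a repressor of plasma cell differentiation, fell by 2.55 (edgeR adjusted p = 0.00418), and Fcer2a, the low affinity IgE receptor CD23, fell by 2.80 (edgeR adjusted p = 0.00681). Aalter-1 lay between VE and the other Aalter libraries for the summed list, which was 345, 346 and 333 CPM in VE, against 472, 588 and 560 CPM in Aalter. Without Aalter-1, 14 fell and 2 rose, in a fit that called 56.3% of all genes tested. With another library left out the number that fell was 6 without Aalter-3, 6 without VE-1, 4 without VE-2 and 7 without VE-3.

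Markers of plasma cells were mostly higher in VE. Of 18 markers, 10 rose and 1 fell (61.1%, against 32.3% of all genes tested), with a median log2 fold change of 0.83. Those with the smallest p were subunits of the secretory pathway and receptors or factors of the lineage: Ssr4 of the translocon complex rose by 0.73 (edgeR adjusted p = 0.00753), Sec11c of the signal peptidase by 0.89 (edgeR adjusted p = 0.0126), Tnfrsf17, the receptor BCMA, by 1.16 (edgeR adjusted p = 0.0164), and Eaf2, a partner of the elongation factor ELL, by 1.30 (edgeR adjusted p = 0.0195). Irf4, named after its values were seen, is a transcription factor of plasma cells that T cells and dendritic cells also use, and it fell by 2.76 (edgeR adjusted p = 0.0229). It had 47.8, 47.6 and 71.6 CPM in VE, against 120, 529 and 486 CPM in Aalter, and it is part of the summed list, which was 1611, 1712 and 2171 CPM in VE, against 1454, 1457 and 1424 CPM in Aalter. Mzb1, a chaperone for IgM assembly named after its values were seen, followed the members with 131, 159 and 244 CPM in VE, against 112, 28.9 and 34.5 CPM in Aalter, and did not pass (edgeR adjusted p = 0.0950). Without Aalter-1, 15 plasma cell markers rose and 1 fell, in a fit that called 56.3% of all genes tested. Without VE-2, 0 rose and 0 fell, and without Aalter-2, Aalter-3, VE-1 or VE-3 only 1 rose. Scaled by library size alone, 4 rose and 1 fell.

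**Figure D5:**
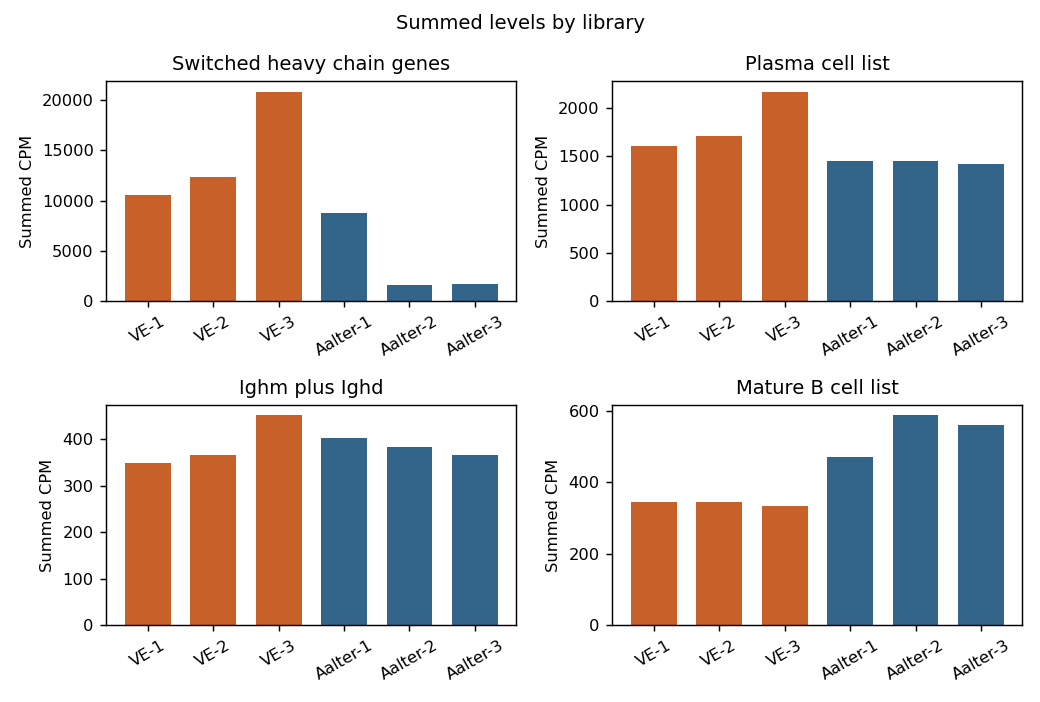
Summed level in CPM of the 6 switched heavy chain genes, the plasma cell list, Ighm plus Ighd and the mature B cell list, as a bar for each library, VE left of Aalter, each panel on its own axis from 0. The switched genes run from 10525 to 20825 CPM in VE, against 8780, 1681 and 1694 CPM across Aalter-1 to Aalter-3, while the other panels span less.

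The machinery of class switching had no common direction. Of 24 genes, 2 rose and 4 fell (25.0%, against 32.3% of all genes tested), and the median log2 fold change was -0.04. The mismatch repair gene Msh6 fell by 1.04 (edgeR adjusted p = 0.00559), Trp53bp1, which protects broken DNA ends, fell by 0.85 (edgeR adjusted p = 0.00752), and the end joining kinase gene Prkdc fell by 0.78 (edgeR adjusted p = 0.00834) on the log2 scale. Batf, a transcription factor that switching requires, rose by 0.50 (edgeR adjusted p = 0.0185). Without Aalter-1, 4 rose and 5 fell, in a fit that called 56.3% of all genes tested. Without VE-1 or VE-2 0 rose and 2 or 0 fell, and without Aalter-2, Aalter-3 or VE-3 0 rose and 3 or 4 fell.

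Of 22 genes for signals that direct the choice of isotype, 4 rose and 11 fell in VE (68.2%, against 32.3% of all genes tested), with a median log2 fold change of -0.21, or -0.35 without Aalter-1. Transforming growth factor beta directs switching to IgA. Its receptor gene Tgfbr2 fell by 1.24 (edgeR adjusted p = 0.00570), and its mediators Smad3 and Runx3 fell by 1.95 and 1.12 on the log2 scale (edgeR adjusted p = 0.00618 and 0.00810). Il21r, the receptor for interleukin 21, fell by 1.87 (edgeR adjusted p = 0.00830). Il21 itself had 3.73, 3.94 and 6.10 CPM in VE, against 2.74, 0.5 and 0.539 CPM in Aalter, nearly the order of libraries of the switched genes, and did not pass (edgeR adjusted p = 0.0608). Il4, the signal for switching to IgG1 and IgE, was low, with 1.15, 1.84 and 1.23 CPM in VE, against 0.670, 1.08 and 0.898 CPM in Aalter (edgeR adjusted p = 0.161), where 3 counts correspond to 0.185 to 0.258 CPM. Tgfbr1, another receptor gene for transforming growth factor beta, had a log2 fold change of 0.49 that did not pass (edgeR adjusted p = 0.0887). The 4 genes that rose were Il6, Il10, Ifng and Tnfsf13b. Their log2 fold changes were 0.64, 0.80, 0.78 and 0.66 (edgeR adjusted p = 0.00912, 0.0124, 0.0438 and 0.0328). Il21, Il4, Tgfbr1 and the 4 genes that rose were named after their values were seen. Without VE-2 none of the 22 passed, without VE-1 2 fell, and without Aalter-2, Aalter-3 or VE-3 1 rose and 4 or 5 fell.

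Of 13 receptors and transporters for antibody, 12 were measured, of which 5 rose and 2 fell in VE (58.3%, against 32.3% of all genes tested), with a median log2 fold change of 0.61, or 0.26 with 4 rising after trends with GC content and length were removed. Fcgr4, an activating receptor for IgG2 antibodies on myeloid cells, rose by 0.72 (edgeR adjusted p = 0.00810), and Fcer1g, the signalling chain shared by Fc receptors, by 0.52 (edgeR adjusted p = 0.0103). Fcmr, the receptor for IgM on B cells, fell by 1.08 (edgeR adjusted p = 0.00647), as did Fcer2a, given above. Pigr, the transporter of polymeric IgA and IgM across epithelium, also named after its values were seen, had 7.31, 2.68 and 5.07 CPM in VE, against 6.33, 3.42 and 5.57 CPM in Aalter, and did not pass (log2 fold change -0.03, edgeR adjusted p = 0.964). Markers of other cells in the tissue moved alongside: 8 of 10 neutrophil markers rose and none fell (5 rose after those trends were removed), 1 of 12 T cell markers rose and 7 fell, 3 of 12 lung epithelium markers rose and 2 fell, and none of 12 liver markers passed. Summed neutrophil markers lay at 36287 to 44328 CPM in VE and 25604 to 29960 CPM in Aalter, summed T cell markers at 757 to 925 CPM in VE and 935 to 1279 CPM in Aalter, and summed lung epithelium markers at 351 to 368 CPM in VE and 383 to 552 CPM in Aalter. Without VE-1 or VE-2, 0 of the antibody receptor genes and 0 of the neutrophil markers rose, and without Aalter-2, Aalter-3 or VE-3 at most 2 and at most 1 did. With any 1 library but Aalter-1 left out, at most 3 T cell markers fell and at most 1 lung epithelium marker rose. Without Aalter-1, 7 antibody receptor genes rose and 3 fell, and 8 neutrophil markers rose, in a fit that called 56.3% of all genes tested. In that fit 2 T cell markers rose and 8 fell, and 4 lung epithelium markers rose and 5 fell. The part of these cell types in the antibody results was not tested.

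Across the 6 libraries the members fell into 2 patterns. The log2 levels of the 6 switched heavy chain genes and Jchain had Pearson r of at least 0.985 with Igkc, while Ighm had 0.49 and Ighd -0.63. Libraries share their groups and the contrast of Aalter-1 with its group, so these values describe likeness only. Among 9166 other genes with a mean of at least 5 CPM, those most like the mean of the standardised members were Parp14, Entpd5, Sash1, Pdxdc1, Sntb2, Manba, Washc5 and Ascc3, with r between 0.995 and 0.998. Parp14 had 190, 202 and 245 CPM in VE, against 193, 106 and 101 CPM in Aalter. Aalter-1 lay between VE-1 and VE-2, not below both as in the 8 members other than Ighm and Ighd.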

How the data were processed

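Total RNA from material labelled lung tissue was made into messenger RNA libraries, per the labels' protocols, 3 in each group. The authors deposited estimated counts, in 1 column for each library, and 10.5% to 12.2% of a column's values were not whole numbers. They were not scaled by the authors, as far as the totals show. The submitters' processing notes name the build mm10, whereas aligner, counting tool and strandedness are not stated there. In 1 entry a stray extra value was left out. GENCODE vM21 held 21804 of the 21956 gene IDs.

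Counts were rounded and tested in R 4.3.3 with edgeR 4.0.16, using filterByExpr, TMM scaling, robust quasi-likelihood fits, the group as the only term, Benjamini-Hochberg adjustment over 12551 genes and a threshold of 0.05. CPM use library size times the TMM factor. Shares and ratios were taken from the counts and tested with exact two-sided permutation tests, adjusted over 13 measures. Exact binomial intervals of the shares were computed with SciPy 1.17.1. The common biological coefficient of variation was 0.210. Alternatives were RLE and library size scaling, scaling without immunoglobulin genes, DESeq2 1.42.0, limma-voom (limma 3.58.1), other filters, a replicate block, removal of trends with GC content and length, and libraries left out.

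The members and the gene lists were chosen with earlier results of these data known. Named genes are the members, up to 4 of each antibody or B lineage list with the smallest p among those past the threshold, and the 8 genes most like the members in log2 CPM (pseudocount 0.5). Some listed genes are not reported here. Genes named outside this rule are said to be so where they appear, apart from Sftpc and S100a9, which describe the tissue. The lists of B cells, plasma cells, switching, isotype signals, antibody receptors, lambda chains, T cells, neutrophils, lung epithelium and liver are given with their counts in the report. Scripts were tested on simulated data. Figures were drawn with matplotlib 3.10.9 under Python 3.11.15.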

Additional observations from a re-analysis of the deposited data

How the results depend on the processing

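The number of members called was 0 with RLE scaling, with scaling that left out immunoglobulin genes, without a filter on low counts and with a minimum mean of 5 CPM. It was 1 with library size alone (Ighd, lower in VE), 1 with DESeq2 (Igkc, higher), 1 after trends with GC content and length were removed (Ighd, lower), 8 with limma-voom and 9 without both libraries numbered 1. Leaving out 1 library at a time gave 0 to 8, with 8 only without Aalter-1. The listed genes called numbered 73 and ranged from 6 without VE-2 to 97 without Aalter-1, and were 25 without Aalter-2, 22 without Aalter-3, 16 without VE-1 and 25 without VE-3. Fewer libraries leave fewer degrees of freedom in each of these fits. The share of all genes tested that was called was 56.3% without Aalter-1. For the fits without any other single library that share was not taken, so list counts from them have no background beside them.

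The fold change of Ighm reversed to -0.065 with library size alone and to -0.11 without VE-3 (up to 0.16 with another library left out), and passed in neither. The difference in the share of Ighe reversed to -0.012 percentage points without Aalter-3 (up to 0.033 points with another library left out). The cause was not tested. The 8 members other than Ighm and Ighd stayed higher in VE in every alternative run, with Igkc between 1.11 and 3.09 on the log2 scale. Library size scaling shifts the median of all genes tested to -0.12, against 0.02 with TMM.

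Libraries share replicate numbers across groups, but nothing says that a number pairs them. Same-numbered libraries deviated together with r of 0.29, 0.29 and 0.04, against -0.31 to 0.22 for other pairs. With the replicate number as a block, 0 members and 65 listed genes were called, and Igkc had a log2 fold change of 2.23 (edgeR adjusted p = 0.0738). Make-up shares of Ighe rest on 40 to 513 counts, the least depth of any member.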
